A study of Mus musculus with 2 samples.

Results

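The 10 genes described here encode receptors of the nuclear receptor family: the glucocorticoid receptor (Nr3c1) and the mineralocorticoid receptor (Nr3c2), the thyroid hormone receptors (Thra and Thrb), the retinoid X receptors (Rxra, Rxrb and Rxrg), the orphan receptors COUP-TF1 and COUP-TF2 (Nr2f1 and Nr2f2) and the retinoic acid receptor-related orphan receptor alpha (Rora). They were chosen by symbol, through the gene identifier without its version, and all 10 had a row among 43346 genes. Nuclear receptors are transcription factors that bind DNA through a pair of zinc fingers, and many of them are switched by a small lipophilic ligand. In the cortex, glucocorticoid and mineralocorticoid receptors respond to the stress hormone corticosterone, which in the mouse is the main glucocorticoid. Thyroid hormone receptors bind DNA largely as heterodimers with retinoid X receptors, repress with corepressors when unliganded, and are known for their part in cortical development.

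RNA was measured in 1 group of 2 libraries, each from a pool of 50 pyramidal neurons taken by laser capture from layer 5 of the cortex of wild-type male mice aged 8 months. The labels give the strain as B6NCrl in one field and as C57Bl5 or C57Bl6 in others, and their antibody tag reads Control. RNA longer than 200 nt was copied by a Smart-seq type protocol, which covers the whole transcript but carries no molecular identifiers, and synthetic spike-in RNAs were added. The labels number the libraries as biological replicates 1 and 2, yet both carry the same donor identifier. The spread between these pools may therefore be technical or reflect which cells were taken, and may not measure that between animals.

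Replicate 1 held 24171434 estimated reads and replicate 2 held 27946180, of which spike-ins took 4.28% and 5.32%. The 10 listed markers of glutamatergic neurons and the 11 listed markers of layer 5 were all at 1 TPM (a level scaled to transcript length and to the total of the library) or more in both libraries. Markers of other cells also reached 1 TPM: 11 of 11 for astrocytes, 11 of 11 for oligodendrocytes and 8 of 12 for vascular cells in each library. In replicates 1 and 2 there were 10 and 8 of 10 for microglia and 10 and 9 of 10 for GABAergic neurons. Of all protein-coding genes, 55.8% and 54.4% reached 1 TPM in replicates 1 and 2, and the vascular share, 66.7%, was not far above that. Summed levels in replicates 1 and 2 were 2403 and 4951 TPM for layer 5 markers (mostly Pcp4, with 2134 and 4468 TPM), 560 and 650 TPM for astrocyte markers, 584 and 714 TPM for oligodendrocyte markers, and 183 and 80.7 TPM for microglial markers. Glutamatergic markers summed to 639 and 828 TPM in replicates 1 and 2, of which Nrgn held 335 and 521 TPM. GABAergic markers summed to 248 and 161 TPM, of which Gad1 held 143 and 94.8 TPM. With 1 library on each side of every comparison there is no replicate check, and no p-value is given. Ratios between the libraries carry 95% exact intervals that cover counting error only.

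The first zinc finger carries a short stretch called the P box, and its codons are shown because its residues are known to set which DNA sequence a receptor recognises. The 24 coding bases of each P box were read from GENCODE M21 transcripts on GRCm38, 5′ to 3′ on the coding strand, and capitals mark the 3 codons that differ between receptor classes. Sequences are given for 9 of the 10 receptors.
Nr3c2, chr8:77085627-77085650, plus strand: tgcGGCAGCtgcaaaGTCttcttc
Thra, chr11:98757009-98757023 and chr11:98760876-98760884, plus strand: tgtGAGGGCtgcaagGGCttcttt
Thrb, chr14:18002614-18002628 and chr14:18008569-18008577, plus strand: tgtGAAGGCtgcaagGGCttcttt
Rxra, chr2:27741787-27741810, plus strand: tgtGAGGGCtgcaagGGCttcttc
Rxrb, chr17:34034045-34034068, plus strand: tgcGAGGGCtgcaagGGTttcttc
Rxrg, chr1:167627315-167627338, plus strand: tgtGAAGGTtgcaaaGGCttcttc
Rora, chr9:69348203-69348217 and chr9:69361739-69361747, plus strand: tgtGAAGGCtgcaagGGCtttttc
Nr2f1, chr13:78198253-78198276, minus strand: tgcGAGGGCtgcaaaAGTttcttc
Nr2f2, chr7:70360021-70360044, minus strand: tgcGAGGGCtgcaagAGCttcttc
By the amino acids that the capitals encode, these 9 fall into 3 classes. Thra, Thrb, Rxra, Rxrb, Rxrg and Rora form one class of 6, Nr2f1 and Nr2f2 form one of 2, and Nr3c2 stands alone here, in the class known to hold the receptors for corticosteroids and progesterone. Across the stretch, Thrb and Rxra each differed from Thra at 1 base, whereas Nr3c2 differed at 7. In Thra, Thrb and Rora an intron splits the stretch, which is why they have a pair of coordinates.

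As a group these receptors were present at low to moderate levels. At 1 TPM or more, 9 of 10 were detected in replicate 1 and 10 of 10 in replicate 2, against 55.8% and 54.4% of 21474 protein-coding genes. Their median was 13.3 TPM in replicate 1 and 13.5 TPM in replicate 2, against 2.02 and 1.84 TPM over the protein-coding genes. The 39 other nuclear receptors had a median of 0.95 TPM in replicate 1, against 0.33 TPM in replicate 2, and 19 and 15 of them were detected in replicates 1 and 2. Summed, the 10 receptors held 201 TPM in replicate 1 and 184 TPM in replicate 2. Thra alone made 46.9% of that sum in replicate 1 and 30.9% in replicate 2, and Thra with Nr3c1 made 65.7% and 49.8% in replicates 1 and 2.

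**Figure D1:**
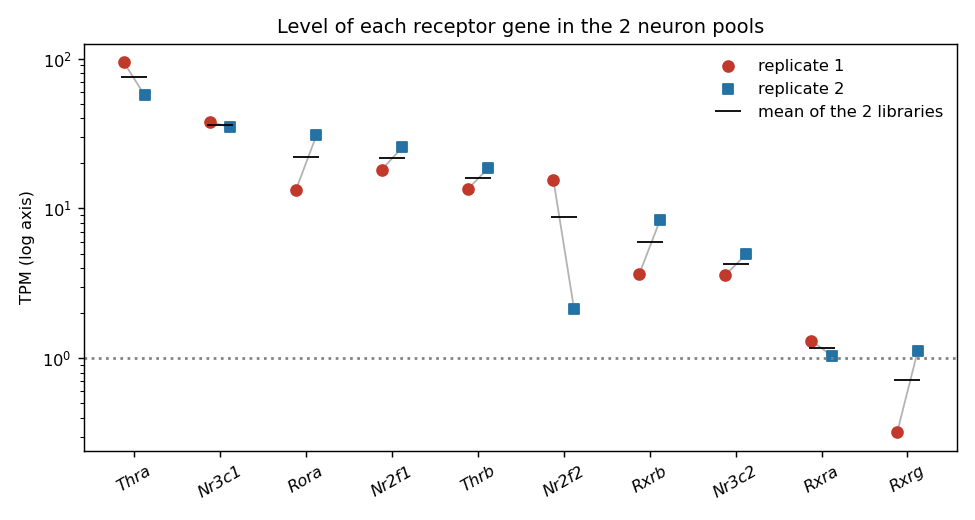
Level of each receptor in TPM (log axis) in replicate 1 and replicate 2, each point 1 library of 50 neurons, with a bar at their mean and a dotted line at 1 TPM. Thra is highest in both libraries, Nr3c1 is next, and the points lie farthest apart for Nr2f2, with 15.4 TPM in replicate 1, against 2.12 TPM in replicate 2.

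Ordered by mean TPM the receptors ran Thra, Nr3c1, Rora, Nr2f1, Thrb, Nr2f2, Rxrb, Nr3c2, Rxra and Rxrg. Only 3 of the 9 steps in this order exceeded the spread between the libraries, those between Thra and Nr3c1, between Nr3c1 and Rora, and between Nr3c2 and Rxra. At the other 6 steps the library values of the neighbours overlapped. Thra and Nr3c1 held the first and the second place in each library, while Rora stood in place 6 in replicate 1 and in place 3 in replicate 2. Nr2f2 stood in place 4 in replicate 1 and in place 8 in replicate 2.

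RNA of the glucocorticoid receptor was moderately abundant and differed little between the libraries. Nr3c1 (chr18:39410545-39519421, minus strand) measured 37.8 TPM in replicate 1 and 34.9 TPM in replicate 2 (36.3 ± 2.07, SD, n = 2), from 2905 reads in replicate 1 and 3416 in replicate 2. Its CPM, a read count scaled to library size only, in replicate 1 was 0.954 times that in replicate 2 (0.907 to 1.00), an interval that takes in a ratio of 1. Among protein-coding genes it stood at percentile 86.7 in replicate 1 and 85.8 in replicate 2.

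Nr3c2 (chr8:76899442-77245012, plus strand) encodes the mineralocorticoid receptor, which binds corticosterone more tightly than the glucocorticoid receptor does. It measured 3.59 TPM in replicate 1 and 4.93 TPM in replicate 2 (4.26 ± 0.95, SD, n = 2), from 313 and 496 reads in replicates 1 and 2, with a CPM ratio, replicate 1 over replicate 2, of 0.708 (0.612 to 0.817). The level of Nr3c1 was therefore 10.5 times that of Nr3c2 in replicate 1 and 7.07 times in replicate 2. The Nr3c1 level exceeded the Nr3c2 level in both libraries, and their values did not overlap.

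Thyroid hormone receptor RNA was mostly Thra. Thra (chr11:98740638-98769006, plus strand), which encodes thyroid hormone receptor alpha, measured 94.3 TPM in replicate 1 and 57.0 TPM in replicate 2 (75.6 ± 26.3, SD, n = 2), from 4296 and 2896 reads in replicates 1 and 2. Replicate 1 was thus the higher library, with a CPM ratio of 1.66 (1.59 to 1.74), inside the 2-fold limit used here to call a gene different between the libraries. In replicates 1 and 2 Thra stood at percentiles 93.7 and 90.2 of protein-coding genes.

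Thrb (chr14:17660261-18038090, plus strand), the gene for thyroid hormone receptor beta, measured 13.4 TPM in replicate 1 and 18.6 TPM in replicate 2 (16.0 ± 3.69, SD, n = 2), from 1573 and 2384 reads in replicates 1 and 2. Unlike Thra it was the lower in replicate 1, with a CPM ratio of 0.740 (0.694 to 0.789). Thra exceeded Thrb 7.04-fold in replicate 1 and 3.06-fold in replicate 2.

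In replicate 1, for which a transcript table was used, the Thra reads were assigned to 5 of 9 annotated transcripts. Thra-201, whose coding sequence of 492 codons encodes TRα2, a form known not to bind thyroid hormone, took 86.0% of the TPM of the gene. By reads, which are not scaled to transcript length, it took 3817 of 4296, or 88.8% (exact binomial 87.9 to 89.8%). Thra-202, with 410 codons for the hormone-binding receptor TRα1, took 9.31% and 377 reads. The remaining transcripts with reads held 2.57% (Thra-203), 1.89% (Thra-207, noncoding) and 0.19% (Thra-205). Thra-201 was therefore 9.24 times as abundant as Thra-202 by TPM and 10.1 times by reads. This comparison rests on 1 library.

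The forms share their first 370 codons and part at a splice junction near the end of the ligand-binding domain, shown here because it separates the form that binds hormone from the form that does not. The last 30 shared coding bases, chr11:98764376-98764405, are in lower case, and the first 45 bases particular to each form are in capitals.
Thra-201: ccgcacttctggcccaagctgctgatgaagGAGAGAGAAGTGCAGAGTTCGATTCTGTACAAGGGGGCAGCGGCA
Thra-202: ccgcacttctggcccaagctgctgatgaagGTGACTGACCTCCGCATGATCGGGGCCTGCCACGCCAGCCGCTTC
In Thra-202 the capitals continue in the same exon, exon 9 of 9, at chr11:98764406-98764450. In Thra-201 they begin its last exon, exon 10 of 10, at chr11:98768157-98768201. By position 12 of the 45 bases in capitals match, and the tails run on for 40 codons in Thra-202 and 122 codons in Thra-201.

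The last exon of Thra-201 spans 850 bases and lies wholly inside the annotated interval of Nr1d1 (chr11:98767932-98775333, minus strand), which encodes the clock repressor REV-ERBα. Of these, 263 bases overlap an Nr1d1 exon on the opposite strand. Nr1d1 measured 11.8 TPM in replicate 1 and 24.3 TPM in replicate 2. The posterior SD of the count, a measure of reads whose gene was uncertain, was the same for both genes, at 7.37 reads in replicate 1 and 10.3 reads in replicate 2. Thra had 4296 reads in replicate 1 and 2896 in replicate 2. The strand setting is not named in the sources used here. These genes overlap on opposite strands, and whether the shared SD came from reads not assigned by strand was not tested. Without strand the reads of these genes cannot be told apart where they overlap.

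Hormone-binding receptor RNA can be set side by side in replicate 1. Thrb, at 13.4 TPM, was 1.53 times as abundant as Thra-202, at 8.78 TPM, and together they measured 22.2 TPM. Thra-201, at 81.1 TPM, was 3.66 times that sum.

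**Figure D2:**
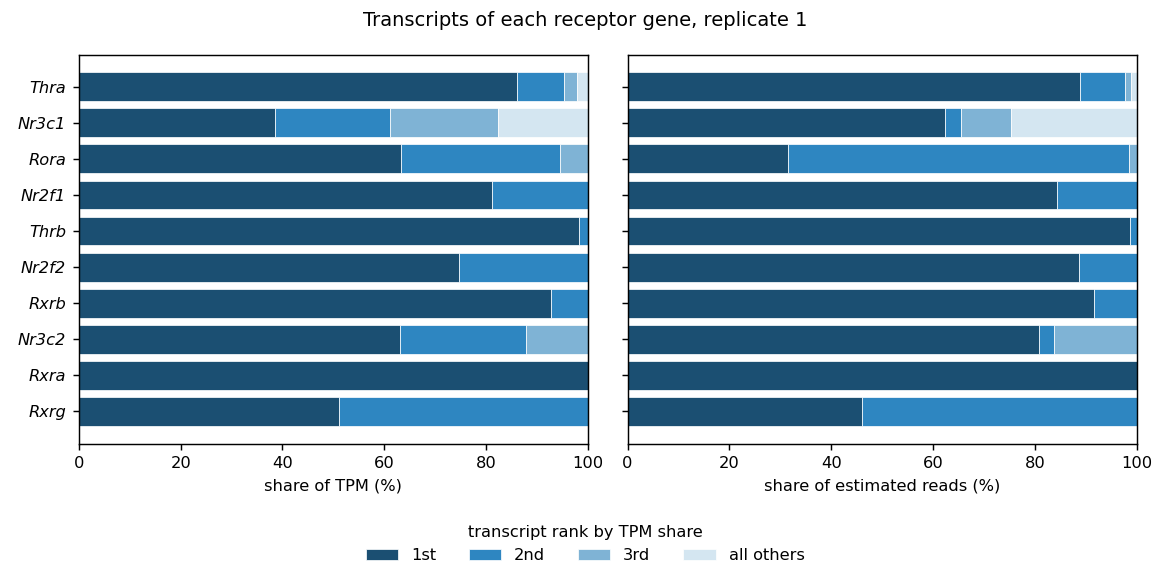
Share of each receptor gene held by its transcripts in replicate 1, as percent of TPM (left) and of estimated reads (right), stacked by rank in TPM. By TPM a leading transcript holds over 50% in 9 of 10 genes, or 7 by the posterior mean, Thra-201 holds 86.0% of Thra, and the leading transcripts of Rora and Rxrg differ between the panels.

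Retinoid X receptors, the partners with which thyroid hormone receptors and many others of the family bind DNA, were scarce beside them. The Rxra, Rxrb and Rxrg levels summed to 5.30 TPM in replicate 1 and 10.5 TPM in replicate 2, while Thra and Thrb summed to 108 TPM in replicate 1 and 75.6 TPM in replicate 2, or 20.3 and 7.20 times as much. In replicate 1 most of the Thra and Thrb sum was Thra-201, the form that does not bind hormone, at 81.1 TPM. Thra-202 and Thrb together measured 22.2 TPM there, against 5.30 TPM for the retinoid X receptors. Rxrb made 69.2% of the retinoid X receptor sum in replicate 1 and 79.4% in replicate 2.

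Rxrb (chr17:34031812-34038399, plus strand) measured 3.67 TPM in replicate 1 and 8.35 TPM in replicate 2 (6.01 ± 3.31, SD, n = 2), from 162 and 408 reads in replicates 1 and 2. Its CPM was 2.25 times as high in replicate 2 as in replicate 1 (1.87 to 2.71). Rxra (chr2:27676440-27762957, plus strand) measured 1.31 TPM in replicate 1 and 1.04 TPM in replicate 2 (1.18 ± 0.19, SD, n = 2), from 126 and 91 reads in replicates 1 and 2, and its CPM ratio was 1.55 (1.18 to 2.06).

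Rxrg (chr1:167598384-167639623, plus strand) was close to the limit of what this depth can show. It measured 0.32 TPM in replicate 1 and 1.12 TPM in replicate 2 (0.72 ± 0.57, SD, n = 2), from 11 reads in replicate 1 (exact Poisson 5.49 to 19.7) and 47 reads in replicate 2 (34.5 to 62.5). Its CPM was 3.81 times as high in replicate 2, with an interval of 1.95 to 8.15 that reaches below 2-fold.

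COUP-TF1 and COUP-TF2, closely related orphan receptors that pattern the cortex and mark interneurons of caudal origin, differed in how far their libraries lay apart. Nr2f1 (chr13:78188973-78199757, minus strand) measured 18.1 TPM in replicate 1 and 25.6 TPM in replicate 2 (21.9 ± 5.31, SD, n = 2), from 1084 and 1345 reads in replicates 1 and 2, with a CPM ratio of 0.904 (0.834 to 0.980). Nr2f2 (chr7:70351944-70366735, minus strand) measured 15.4 TPM in replicate 1 and 2.12 TPM in replicate 2 (8.77 ± 9.40, SD, n = 2), from 1071 and 192 reads in replicates 1 and 2. Its CPM was 6.26 times as high in replicate 1 (5.36 to 7.33), the widest gap among the 10 receptors. Nr2f1 was thus 1.18 times Nr2f2 in replicate 1 and 12.1 times in replicate 2.

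Most markers of caudal interneurons that could be compared were higher in replicate 1, as Nr2f2 was, while Nr2f1 stayed within 2-fold. Of 10 listed, 7 were at 1 TPM or more in replicate 1 and 3 in replicate 2. Of the 7 that could be compared, 5 were beyond 2-fold higher in replicate 1. Over all genes compared, 9.15% were beyond 2-fold higher in replicate 1 and 6.3% higher in replicate 2. Vip, a neuropeptide of one interneuron class, measured 153 TPM in replicate 1, against 0.03 TPM in replicate 2, and Adarb2 measured 2.51 TPM in replicate 1 and 0.29 TPM in replicate 2. Prox1, Npas1 and Nr2e1 were the other 3 that were higher in replicate 1, Cck and Reln stayed within 2-fold, Sp8 had no reads in either library and Htr3a had none in replicate 2. The list summed to 2827 TPM in replicate 1 and 2492 TPM in replicate 2, mostly from Cck. The wider GABAergic list summed to 248 and 161 TPM in replicates 1 and 2, with 2 of 10 genes (3 with spike-in scaling) beyond 2-fold, each higher in replicate 1. Among vascular markers, 1 of 10 compared was beyond 2-fold higher in replicate 1 and 4 (3 with spike-in scaling) in replicate 2, and their sums were 126 and 129 TPM in replicates 1 and 2. Microglial markers were beyond 2-fold higher in replicate 1 for 8 of 10. The part of these cells in the Nr2f2 difference was not tested, and in pooled material fewer cells of a type and less RNA per cell cannot be told apart.

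Rora (chr9:68653786-69388246, plus strand) encodes a constitutively active orphan receptor that drives transcription of clock genes. It measured 13.2 TPM in replicate 1 and 30.7 TPM in replicate 2 (21.9 ± 12.4, SD, n = 2), from 1324 and 3215 reads in replicates 1 and 2, and its CPM was 2.17 times as high in replicate 2 (2.03 to 2.31). The layer 4 markers that could be compared moved the same way. Of these 5, 5 were beyond 2-fold higher in replicate 2, against 6.3% of all genes compared, or 4 with spike-in scaling. The 7 listed summed to 22.2 TPM in replicate 1 and 79.6 TPM in replicate 2. Rorb, a close relative of Rora, measured 5.51 TPM in replicate 1 and 19.0 TPM in replicate 2. Rspo1, too low to compare, went the other way, with 0.2 TPM on 7 reads in replicate 1 and no reads in replicate 2. Scnn1a, also too low to compare, was at 0.03 and 0.07 TPM in replicates 1 and 2. Layer 5 markers were also beyond 2-fold higher in replicate 2 for 6 of 11, or 2 of 11 with spike-in scaling, among them Etv1 at 15.4 and 93.6 TPM in replicates 1 and 2. The part of layer composition in the Rora difference was not tested.

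In all, 4 of 10 receptors lay beyond 2-fold between the libraries, Nr2f2 higher in replicate 1 and Rora, Rxrb and Rxrg higher in replicate 2. Over 14332 genes at a mean of at least 1 CPM, 15.4% lay beyond 2-fold, 9.15% higher in replicate 1 and 6.3% higher in replicate 2. Scaled by the spike-ins, which moved the median log2 ratio of all genes to 0.36, 3 of 10 lay beyond the limit: Thra joined as higher in replicate 1 at a log2 ratio of 1.09, and Rora and Rxrb fell inside it at -0.76 and -0.81. The same scaling put 82.8% of all genes beyond the limit on the side of replicate 1, against 59.2% under the scaling used elsewhere here, and gave Nr3c1 and Nr2f1 ratios above 0 on the log2 scale, at 0.29 and 0.21, against -0.07 and -0.15.

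**Figure D3:**
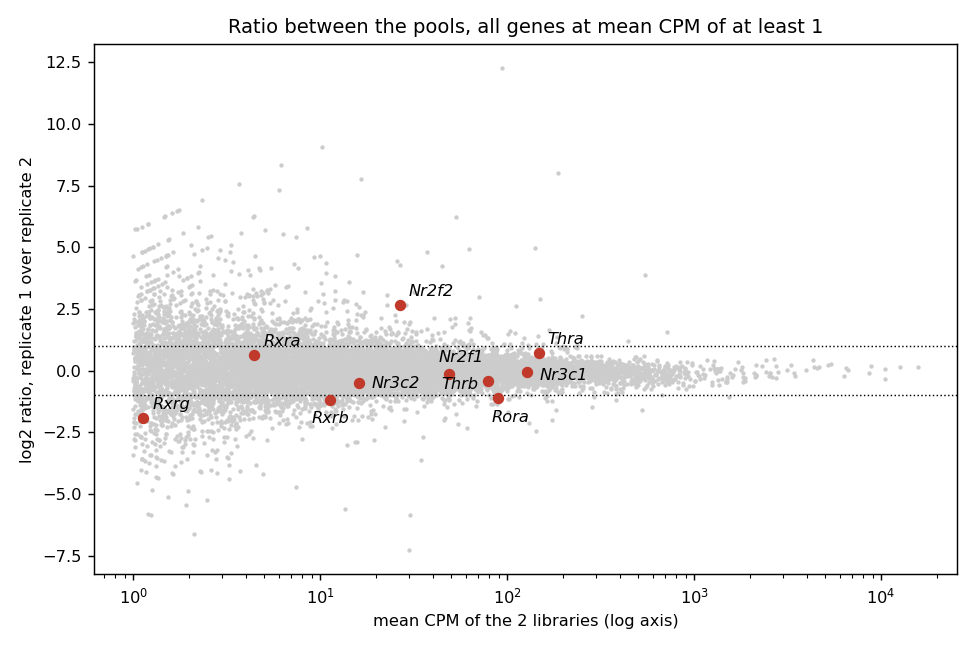
Log2 ratio of CPM, replicate 1 over replicate 2, against mean CPM (log axis) for genes with a symbol, reads in both libraries and a mean of at least 1 CPM, with the 10 receptors in red and dotted lines at 2-fold. Nr2f2 lies above the upper line at 2.65, and Rora, Rxrb and Rxrg lie below the lower one at -1.11, -1.17 and -1.93.

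Other transcript shares in replicate 1 were less simple than that of Thra. By TPM, Rora-202 (467 codons) led Rora with 63.3%, whereas by reads the longer Rora-201 (523 codons) led with 67.1%. These forms are known to differ at the start of the protein. Nr3c1-204 led Nr3c1 with 38.5% of TPM and 62.3% of reads, but its posterior SD was 250 reads on 1811, and Nr3c1-203, which has the same coding length, had a like uncertainty. Short or incomplete Nr3c1 transcripts took 22.6% (Nr3c1-205, 632 nt) and 21.1% (Nr3c1-208) of TPM.

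Each COUP-TF gene had a minor transcript whose coding sequence does not hold the complete pair of zinc fingers. Nr2f1-205 (263 codons) held 18.9% of Nr2f1 TPM beside 81.1% for Nr2f1-201 (420 codons), and Nr2f2-202 (281 codons) held 25.3% beside 74.7% for Nr2f2-201 (414 codons). Thrb was nearly all Thrb-203 at 98.1%, a transcript of 5997 nt in the deposited table and 1758 nt in GENCODE M21. Rxra was all Rxra-201 and Rxrb was 92.7% Rxrb-202, on 126 and 162 reads. By the posterior mean these shares were 76.8% for Rxra-201 and 76.2% for Rxrb-202. Rxrg divided 51.0% to 49.0% between Rxrg-202 and Rxrg-203, on 11 reads.

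Several receptors overlap other genes with which reads could be shared where strand was not used. In replicate 2 the posterior SD was 0.58 reads for both Nr2f1 and A830082K12Rik, which lie on opposite strands. It was 1.28 reads for both Nr3c2 and Gm10649, also on opposite strands. In replicate 1 it was 0 for each of these genes. Nr2f1 overlaps the antisense A830082K12Rik by 1741 bases, which measured 23.2 TPM in replicate 1 and 18.7 TPM in replicate 2. B130024G19Rik, which overlaps Nr2f2, measured 0.91 and 0.23 TPM in replicates 1 and 2, and Gm10649, which overlaps Nr3c2, measured 1.54 and 1.7 TPM. Gm15511, which overlaps Rora, measured 0.55 and 0 TPM in replicates 1 and 2. The snoRNA Gm24838 and the snRNA Gm23260, inside Nr3c2, and Gm24140, inside Thrb, had at most 3 reads in either library, and Gm48320 and Gm48321, inside Thrb, were not analysed here.

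Of all 49 nuclear receptors, 5 of the 10 with the highest means were among the 10 described, with Thra first. The largest level outside them was that of Nr4a2, an orphan receptor, with 133 TPM in replicate 1, against 0.89 TPM in replicate 2. Its CPM was 258 times as high in replicate 1 (188 to 364). Nr1d2, the paralogue of Nr1d1, measured 23.8 and 29.4 TPM in replicates 1 and 2 and stayed within 2-fold. Of 21 other receptors compared, 4 were beyond 2-fold higher in replicate 1 and 3 higher in replicate 2, or 5 and 1 of 22 with spike-in scaling. Beside Nr4a2 the higher ones in replicate 1 were Esr1 (oestrogen receptor alpha), with 1.47 and 0.22 TPM in replicates 1 and 2, Pparg with 1.5 and 0.33 TPM, and Nr2e1 with 2.15 and 0.54 TPM. Those higher in replicate 2 were Nr1d1, Rorb and Esrra, the last with 2.3 and 5.58 TPM in replicates 1 and 2.

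**Figure D4:**
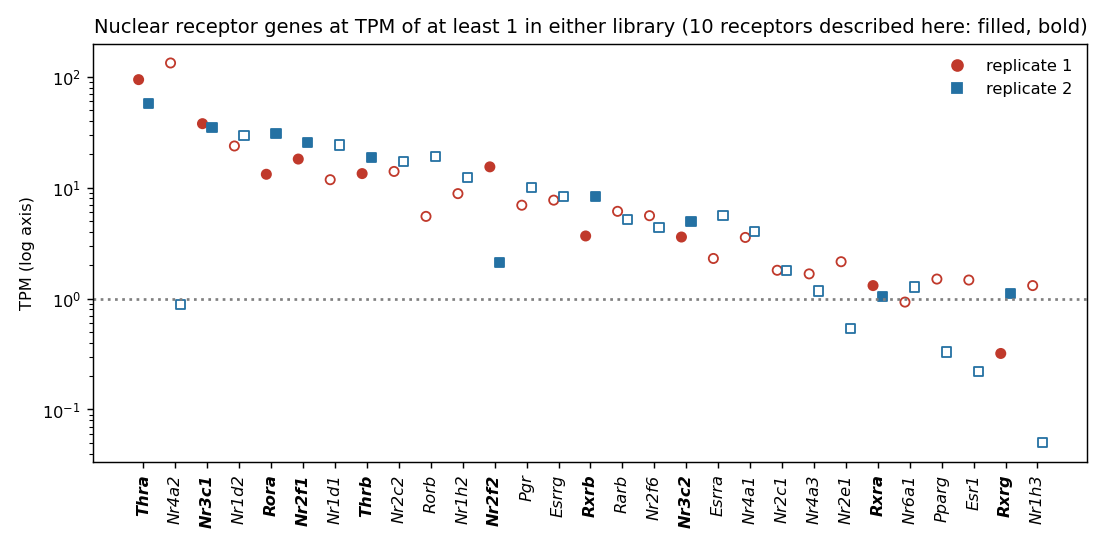
Nuclear receptor genes at 1 TPM or more in either library, ordered by mean TPM (log axis), with replicate 1 as circles, replicate 2 as squares and the 10 receptors described here filled and in bold. Thra stands first, and the points of Nr4a2 lie farthest apart, with 133 TPM in replicate 1, against 0.89 TPM in replicate 2.

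Genes that act with these receptors were grouped by role. Their counts beyond 2-fold stand beside 15.4% of all 14332 genes compared. Their counts detected stand beside 55.8% and 54.4% of 21474 protein-coding genes in replicates 1 and 2. The 12 chaperones that hold steroid receptors ready for ligand were all detected, with a median of 147 TPM in replicate 1, against 164 TPM in replicate 2, and none lay beyond 2-fold. The HSP90 gene Hsp90aa1 measured 1972 and 2102 TPM in replicates 1 and 2, Hspa8 measured 1510 and 1692 TPM, and Hsp90ab1 measured 1168 and 1184 TPM.

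Enzymes that make or convert corticosteroids were mostly at or near 0, with 3 and 4 of 12 detected in replicates 1 and 2. Hsd11b1, which regenerates active corticosterone, measured 6.80 TPM in replicate 1 and 34.1 TPM in replicate 2, a CPM 4.85 times as high in replicate 2 (4.13 to 5.73). It is itself on the layer 4 list. Hsd11b2, which inactivates corticosterone, had 0 reads in each library, which allows up to 3 reads, or 0.128 CPM in replicate 1 and 0.114 CPM in replicate 2. Srd5a1, a steroid reductase, measured 4.6 and 3.12 TPM in replicates 1 and 2, and Cyp11a1, which starts steroid synthesis, measured 1.07 and 1.26 TPM. Star, a carrier of cholesterol, measured 0.45 TPM in replicate 1 and 1.4 TPM in replicate 2, with a CPM 3.12 times as high in replicate 2 (1.96 to 5.14).

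Known glucocorticoid-responsive genes were present for 14 of 15, with a median of 10.4 TPM in replicate 1, against 10.5 TPM in replicate 2. The metallothioneins led in replicates 1 and 2, with 843 and 553 TPM for Mt1 and 110 and 54.7 TPM for Mt2, followed by Tsc22d3 (GILZ) with 50.8 and 60.8 TPM. Mt2, at 2.01-fold (1.82 to 2.24), and Sult1a1, at 2.16-fold (1.46 to 3.25), were the 2 of 14 beyond 2-fold, both higher in replicate 1. The other listed gene, Ddit4, had 0.38 TPM in replicate 1, against 0.2 TPM in replicate 2. With spike-in scaling 3 of 14 lay beyond 2-fold.

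Of genes that carry or convert thyroid hormone, 6 of 10 were detected in each library, near the share of all protein-coding genes. Crym, a binder of thyroid hormone that is also a layer 5 marker, measured 49.7 TPM in replicate 1 and 40.4 TPM in replicate 2. The transporter Slc7a8 measured 5.38 TPM in replicate 1, against 5.8 TPM in replicate 2. In both libraries 4 of the 10 were under 1 TPM. Among them Slc16a10 had 0.68 TPM in replicate 1 and 0.25 TPM in replicate 2, with a CPM 2.69 times as high in replicate 1 (1.74 to 4.27), the 1 of 7 compared that lay beyond 2-fold. Dio1 and Ttr were at 0.03 and 0.04 TPM in replicate 1 and at 0 in replicate 2, and Dio3, the inactivating deiodinase, had no reads in either.

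Thyroid hormone response genes were detected for 8 of 10 in replicate 1 and 7 of 10 in replicate 2, with a median of 16.1 TPM in replicate 1, against 39.7 TPM in replicate 2. In replicates 1 and 2, Nrgn, a binder of calmodulin at synapses, led with 335 and 521 TPM, followed by the myelin gene Mbp with 207 and 287 TPM and the transcription factor Klf9 with 37.4 and 49.0 TPM. Beyond 2-fold were 3 of 8, each higher in replicate 2. They were Thrsp with 14.1 and 41.5 TPM in replicates 1 and 2, the kinase Camk4 with 18 and 38 TPM, and the corepressor Hr with 0.09 and 0.51 TPM on 9 and 59 reads. With spike-in scaling 9 genes of the list could be compared. Of those, 2 lay beyond 2-fold higher in replicate 2, and 1, not among the 3 just named, higher in replicate 1. Besides Hr, Aldh1a3 was under 1 TPM in both, with 0.25 TPM in replicate 1 and 0.03 TPM in replicate 2.

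Of retinoid-binding and retinoid-converting genes, 7 of 17 were detected in each library, under the share of all protein-coding genes. None of 8 compared lay beyond 2-fold, and 10 were under 1 TPM in both. In replicates 1 and 2, the retinoic acid carrier Fabp5 measured 287 and 336 TPM, Rbp4, a retinol carrier that is also a layer 5 marker, measured 69.4 and 98.8 TPM, and Aldh1a1, an enzyme that makes retinoic acid, measured 17.6 and 11.8 TPM.

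Coregulators were detected throughout. All 11 coactivators with a row were at 1 TPM or more in both libraries, with a median of 13.8 TPM in replicate 1, against 16.8 TPM in replicate 2. The Mediator subunit Med1 measured 31.6 and 33.5 TPM in replicates 1 and 2, Crebbp 23.6 and 24.4 TPM and Ncoa6 20.6 and 18.5 TPM. Carm1, a methyltransferase coactivator, measured 1.13 TPM in replicate 1, against 2.75 TPM in replicate 2. It was the 1 of 11 beyond 2-fold, with a CPM 2.69 times as high in replicate 2 (2.02 to 3.63). With spike-in scaling 1 of 11 coactivators lay beyond 2-fold higher in replicate 1 and 1 higher in replicate 2. The 12 corepressors had medians of 11.4 and 11.2 TPM in replicates 1 and 2 and none beyond 2-fold, led by Ncor1, which unliganded thyroid hormone receptors recruit, with 158 TPM in replicate 1, against 145 TPM in replicate 2. Bcl11a measured 39.6 and 71.4 TPM in replicates 1 and 2, and the deacetylase Hdac3 36.1 and 46.4 TPM.

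**Figure D5:**
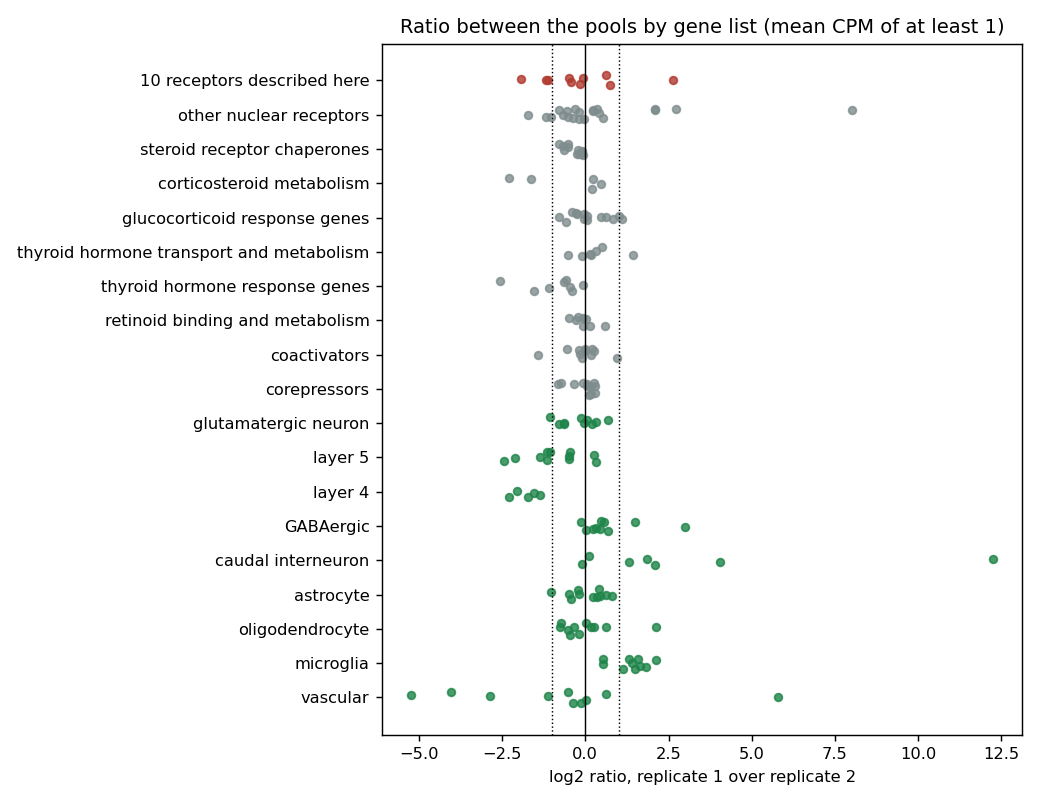
Log2 ratio of CPM, replicate 1 over replicate 2, for each gene at a mean of at least 1 CPM in the receptor and pathway lists (red and grey) and the marker lists (green), with dotted lines at 2-fold. Chaperones, retinoid genes and corepressors have no gene beyond the lines, and 4 of the 10 receptors described here (3 with spike-in scaling) lie outside them. Over all genes at a mean of at least 1 CPM, 15.4% lie outside them.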

How the data were processed

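The deposited gene tables hold, per library, an expected count (an estimated number of reads), and TPM and FPKM, which the authors scaled by effective length over all features of the file, spike-ins included. The posterior SD of each count is a score of assignment uncertainty, per the file headers. The transcript table, used for replicate 1, gives the percent of a gene's TPM in each transcript, per the file headers. Reads were quantified on mm10 with GENCODE M4, per the text files that the authors deposited. Neither aligner, quantifier nor strand setting is named in the sources used here.

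Symbols, coordinates and coding sequences came from GENCODE M21 (GRCm38), and 42462 of 43346 gene identifiers matched. Expected counts were rounded, and library sizes were scaled by TMM (edgeR 4.0.16, R 4.3.3). Genes at a mean CPM of at least 1 were called at a ratio of 2-fold, a step tested on simulated data. Alternatives were DESeq2 1.42.0 size factors, total counts, spike-in totals, and other filters, folds and units. Python 3.11.15, pandas 2.3.3, numpy 2.4.6, scipy 1.17.1 and matplotlib 3.10.9 served elsewhere. Intervals are 95% exact and cover counting error only, since reads without molecular identifiers are not independent molecules. Counting intervals of the ratio excluded 1 for 71.6% of genes, and the libraries were kept as separate samples. Group and replicate numbers came from the labels, which name no batch.

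Members and lists were chosen with earlier results of these data known. Named are all members, genes overlapping a member and, from each pathway list, the 3 highest by mean TPM, those beyond 2-fold and those under 1 TPM in both libraries where 5 or fewer were. The marker genes singled out by name were chosen after their values were seen. Some genes that this rule or a figure would show are not reported here. A pair of libraries allows no measure of likeness between genes, so none are named for it.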

Additional observations from a re-analysis of the deposited data

How the results depend on the processing

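No paired analysis was possible because the libraries form a single group. With a minimum of 5 TPM, 5 receptors were detected in both libraries, against 9 at 1 TPM. Their median, averaged over the libraries, was 13.4 TPM, 14.7 with TPM rescaled over genes alone and 10.9 by FPKM, and 13.3 to 13.5 with 1 library left out. At a 3-fold limit 2 receptors lay beyond it, against 4, and 1057 of 14332 genes against 2214. At 1.5-fold these were 6 and 4512, with no filter 4 and 8225 of 43346 genes, and at a mean of 10 CPM 3 and 459 of 9189. Totals and DESeq2 size factors left 4. With log2(CPM + 1) Rxrg came inside the limit at -0.93, leaving 3 and 1487. Thra-201 held 86.0% of Thra TPM, 88.8% of its reads and 87.9% among coding transcripts. No direction of a called value reversed. A leading transcript held over 50% in 9 of 10 genes, 7 by the posterior mean share and 10 by reads. Leaving out a library moved the level of 4 receptors by over 1.5 times. In replicate 1 alone, without replicate 2, Nr2f2 was at 15.4, Rxrg at 0.32, Rora at 13.2 and Rxrb at 3.67 TPM, and in replicate 2 alone Nr2f2 was at 2.12 and Rxrg at 1.12 TPM, against means of 8.77, 0.72, 21.9 and 6.01 TPM for Nr2f2, Rxrg, Rora and Rxrb. The causes were not tested. Leaving out a library could give no value for the 2-fold count, the order or the transcript shares. Under about 50 reads, as for Rxrg, depth limits the ratio.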

Other observations

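RNA of a sex steroid receptor was also present in these pools of male neurons. Pgr, the progesterone receptor, measured 6.95 TPM in replicate 1, against 10.1 TPM in replicate 2, above the level of Nr3c2 in the same library. Esr2, an oestrogen receptor, was at 0.21 and 0.14 TPM in replicates 1 and 2. Of the retinoic acid receptors, Rarb measured 6.12 TPM in replicate 1, against 5.2 TPM in replicate 2, while in replicates 1 and 2 Rara was at 0.4 and 0.68 TPM and Rarg at 0.11 and 0.17 TPM. Vdr, the vitamin D receptor, had no reads in either library, which allows up to 3 reads in each. These genes were chosen after their values were seen.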
